A study of Homo sapiens with 6 samples.

Results

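The Toll-like receptors *TLR1*, *TLR2*, *TLR4*, *TLR5*, *TLR6*, *TLR7*, *TLR8*, *TLR9* and *TLR10* and the adaptor *MYD88* were followed in RNA sequencing of MV4-11 cells. These 10 genes were taken by name from the 61806 Ensembl identifiers of the count table, and each name matched a single identifier. *TLR9* is described together with ENSG00000173366, an identifier that overlaps it on the same strand. MV4-11 is a human acute myeloid leukemia (AML) cell line with monocytic features and carries an internal tandem duplication in *FLT3*. The study compared 3 libraries with a control shRNA, shNC, with 3 libraries labelled shATGL, for an shRNA against *ATGL*, the gene of adipose triglyceride lipase, and asked which transcripts change when this enzyme is depleted. The shRNAs were delivered by lentivirus, all 6 libraries came from the same line, and no time point, dose or further treatment separates the groups. The labels do not say which of the study's shRNAs the shATGL libraries carry, nor whether the 3 libraries of a group came from separate cultures, so p-values measure only the spread between these libraries, which may be technical.

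Toll-like receptors are membrane proteins that sense microbial products. *TLR2*, together with *TLR1* or *TLR6*, recognizes bacterial lipoproteins at the cell surface, *TLR4* recognizes lipopolysaccharide and *TLR5* recognizes flagellin, whereas *TLR7*, *TLR8* and *TLR9* sense RNA or DNA inside endosomes. Upon binding, these receptors recruit *MYD88*, which assembles IRAK kinases and TRAF6 and leads to activation of NF-κB and interferon regulatory factors. Monocytes are known for high *TLR2* and *TLR4*, and B cells and plasmacytoid dendritic cells for *TLR7* and *TLR9*.

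The deposited totals ranged from 59674064 to 74808280 counts per library. Low counts did not fall evenly, because 1151 to 1234 genes per library had exactly 4 counts while 657 to 718 had 3 and 401 to 464 had 5, with a further excess at 8. A count was therefore not taken as a single read, no counting interval was computed, and a floor of 12 counts per library was used as the limit of detection. Levels are given as CPM, the count divided by the normalized library total and multiplied by the same constant in every library. The mean of *PNPLA2*, the gene that encodes ATGL, was 102 ± 5.10 CPM for shNC and 101 ± 2.96 CPM for the shATGL label (SD, n = 3 each; exact permutation p = 1), with a log2 fold change of -0.01 and an adjusted p of 0.979 in edgeR's quasi-likelihood test, so the targeted transcript did not separate the groups and the group names below are those of the labels. Of 13 myeloid and monocytic markers, 11 were at 10 CPM or more, whereas *MS4A1* and *BLK* of the B cell markers, *CLEC4C* of the plasmacytoid dendritic cell markers and *CD3D* and *CD8A* of the T cell markers were at 0 in every library. Other markers of these types were present, since 4 of 6 B cell markers and 1 of 6 T and NK cell markers were at 1 CPM or more. Of the 5 plasmacytoid dendritic cell markers, 2 were at 10 CPM or more. *CD14*, named after its values were seen, was not among the 13 myeloid and monocytic markers and had 0 to 18 counts per library.

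Per transcript length, *TLR2* was the most abundant receptor transcript in these cells and *MYD88* lay close below it. Levels were compared between genes as CPM per kilobase of the longest annotated transcript, averaged over the 6 libraries. *TLR2* reached 16.5 ± 1.29 CPM per kilobase (SD, n = 6) and was above 79.0% of the tested genes. *MYD88* reached 12.5 ± 0.922 CPM per kilobase. *TLR4* was the only other receptor above 1 CPM per kilobase, at 1.48 ± 0.186, and lay below the median of the tested genes, which was 3.07 CPM per kilobase. Its longest annotated transcript is 12853 bases, and with the 5432 bases of its transcript matched to RefSeq, a length chosen after seeing the data, the level was 3.50 CPM per kilobase. With that same choice of length *TLR2* stood at 23.2 and *MYD88* at 15.2 CPM per kilobase, and the order of the 3 genes was as before. The median of the tested genes was computed with longest transcripts only, so the 3.50 of *TLR4* cannot be set against it. *TLR1* followed at 0.595 ± 0.211, *TLR6* at 0.361 ± 0.101, *TLR5* at 0.137 ± 0.0373 and *TLR9* at 0.124 ± 0.150 CPM per kilobase. The *TLR9* value pools 0 in every shNC library with 0.247 ± 0.102 CPM per kilobase in shATGL (SD, n = 3), and it was 0.0753 without shATGL 2. ENSG00000173366, which overlaps *TLR9*, was at 0.3996 ± 0.305 in shNC and 0 in shATGL, or 0.1998 CPM per kilobase over the 6 libraries, above *TLR5*. *TLR10*, *TLR8* and *TLR7* lay at 0.0172, 0.0134 and 0.0134 CPM per kilobase.

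**Figure D1:**
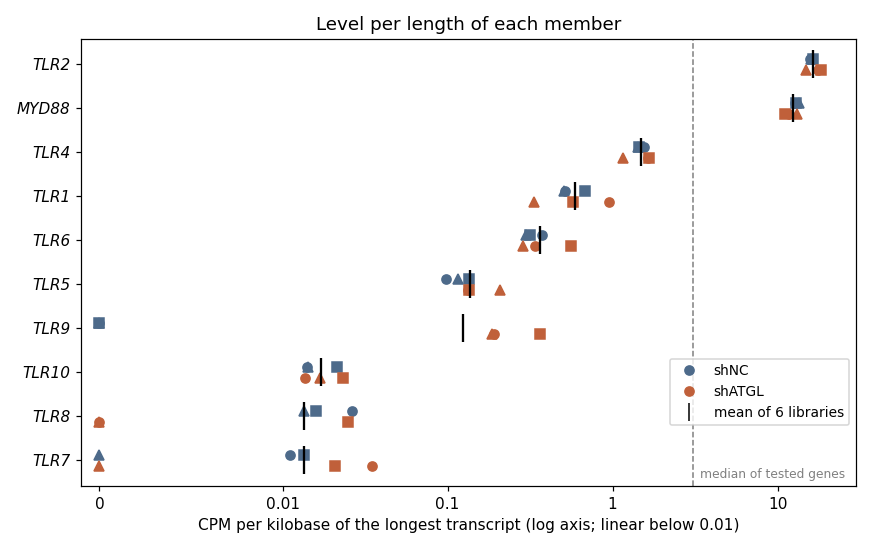
Level of each member in CPM per kilobase of its longest transcript, on a log axis that is linear below 0.01; symbols are single libraries (circle, square and triangle for replicates 1, 2 and 3), black bars are means of the 6 libraries, and the dashed line is the median of the tested genes at 3.07. *TLR2* and *MYD88* lie above that line and all other receptors lie below it.

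Neighbours in this order were compared within libraries. *TLR2* was above *MYD88*, *MYD88* above *TLR4*, *TLR4* above *TLR1*, *TLR1* above *TLR6* and *TLR6* above *TLR5* in 6 of 6 libraries each, with an exact two-sided sign-flip p of 0.0312 in every case (adjusted p = 0.0563 over 9 neighbour pairs), which is the smallest p that 6 libraries can give. The order was taken from the means of these same libraries, so these p-values describe how steady it was and add no separate support to it. With the union of all annotated exons as length, *TLR1* was at 0.374, *TLR6* at 0.352 and *TLR5* at 0.0752 CPM per kilobase, and *TLR1* exceeded *TLR6* in 3 of 6 libraries, so their order depended on the length used. The values of *TLR1* and *TLR6* overlapped between libraries, whereas those of the other 4 pairs did not. The place of *TLR9* was not resolved, since *TLR5* exceeded it in 4 of 6 libraries (exact sign-flip p = 0.812), or in 3 of 6 with the union of exons. *TLR5*, at 0.0970 to 0.207 CPM per kilobase, lay above the highest values of *TLR10* (0.0231), *TLR8* (0.0262) and *TLR7* (0.0350). The order among *TLR10*, *TLR8* and *TLR7* was not resolved, since *TLR8* exceeded *TLR7* in 4 of 6 (exact sign-flip p = 1). *TLR2* thus outnumbered its partners in every library. The ratio of *TLR2* to *TLR1* per kilobase was between 18.3 and 44.7, and the ratio of *TLR2* to *TLR6* was between 33.0 and 53.5. The ratio of *TLR2* to *TLR4* was between 10.1 and 12.9. With the lengths matched to RefSeq these ratios were 25.9 to 63.0, 46.5 to 75.5 and 6.04 to 7.69. With the union of exons they were 23.5 to 57.2, 27.3 to 44.2 and 8.42 to 10.7.

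No member passed the test between shATGL and shNC. A call required a fold change of at least 2 together with an adjusted p under 0.05 in edgeR's quasi-likelihood test over 19149 genes. Of the 10 members 7 had enough counts to be tested and 0 were called, beside 0.00522% of all tested genes. An unadjusted p under 0.05 was reached by 1 of the 7, *TLR9*, beside 11.7% of all tested genes. The groups did not overlap in 1 of the 7, again *TLR9*, beside 17.3% of all tested genes (7.93% with shATGL higher and 9.38% with shATGL lower). DESeq2 and limma voom with quality weights each called 1 member, *TLR9*, which is described with its overlapping identifier below.

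**Figure D2:**
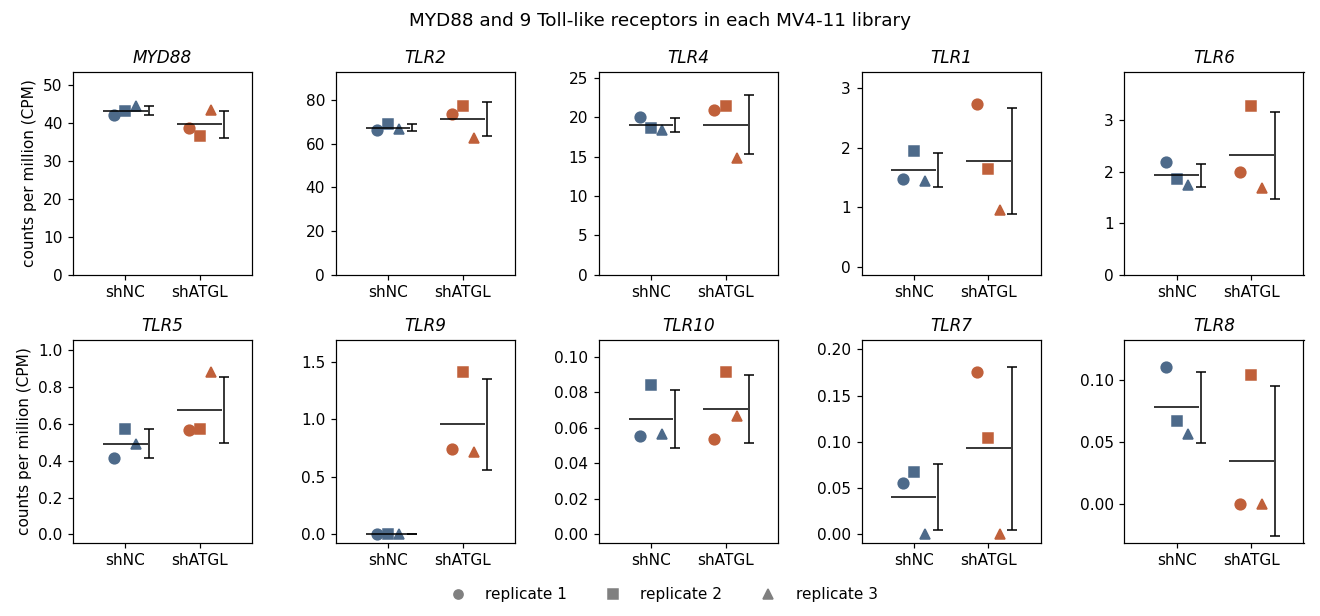
CPM of each member in each library, with a separate linear axis per gene; circles, squares and triangles are replicates 1, 2 and 3, horizontal lines are group means and bars are ± SD (n = 3). The groups overlap for every member except *TLR9*, which is at 0 in all 3 shNC libraries.

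*MYD88*, the adaptor of *TLR2*, *TLR4*, *TLR5*, *TLR7*, *TLR8* and *TLR9*, lies on chromosome 3 (chr3:38138478-38143022, GRCh38, plus strand). It was at 42.1, 42.9 and 44.5 CPM in shNC 1 to 3 and at 38.7, 36.6 and 43.4 CPM in shATGL 1 to 3. Libraries shATGL 1 and shATGL 2 were below every shNC library, and shATGL 3 was between shNC 2 and shNC 3. The group means were 43.2 ± 1.21 and 39.5 ± 3.47 CPM (SD, n = 3 each; exact permutation p = 0.3, where 3 against 3 cannot go below 0.1). The log2 fold change was -0.13 with a 95% interval of -0.32 to 0.07 (edgeR adjusted p = 0.559).

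*TLR2*, the lipoprotein receptor of the cell surface, lies on chromosome 4 (chr4:153684070-153705702, plus strand). It was at 66.1, 68.9 and 66.8 CPM in shNC 1 to 3 and at 73.7, 77.3 and 62.5 CPM in shATGL 1 to 3. The shNC libraries lay within 3 CPM of each other, while shATGL 1 and shATGL 2 were above all of them and shATGL 3 was below all of them. The means were 67.3 ± 1.46 and 71.1 ± 7.74 CPM (SD, n = 3 each; exact permutation p = 0.4), and the log2 fold change was 0.08 with a 95% interval of -0.12 to 0.29 (edgeR adjusted p = 0.727). When the dependence on transcript length and GC content was removed from every library the sign turned, to a log2 fold change of -0.06. Over the 18566 tested genes with a length, the log2 fold change correlated with transcript length at a Spearman's rho of 0.218. The rho was 0.0242 once that dependence was removed.

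*TLR4*, the lipopolysaccharide receptor, lies on chromosome 9 (chr9:117704175-117724730, plus strand) and showed the same arrangement of libraries. Its levels were 19.96, 18.6 and 18.4 CPM in shNC 1 to 3 and 20.9, 21.5 and 14.8 CPM in shATGL 1 to 3. Again shATGL 1 and shATGL 2 exceeded every shNC library and shATGL 3 was below every shNC library. The means were nearly equal, at 19.0 ± 0.841 and 19.1 ± 3.69 CPM (SD, n = 3 each; exact permutation p = 1), and the log2 fold change was 0.01 with a 95% interval of -0.34 to 0.35 (edgeR adjusted p = 0.990). The sign of this difference turned under 6 of 14 alternatives, and *TLR4* was not assigned a direction. *TLR2* and *TLR4* were 2 of 7 tested members with this arrangement, beside 8.53% of all tested genes; the arrangement was chosen after the values were seen.

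*TLR4* signals with the co-receptor encoded by *LY96*, also called MD-2, and with *CD14*, which delivers lipopolysaccharide. Both were near the floor in these libraries, a comparison chosen after the values were seen. *LY96* had between 0 and 3 counts and *CD14* between 0 and 18 counts per library, against 890 to 1643 counts of *TLR4*. Per kilobase of the longest transcript, the means over the 6 libraries were 0.0200 CPM for *LY96*, 0.0924 for *CD14* and 1.48 for *TLR4*. *CD180* and *LY86*, a receptor and its partner protein that resemble *TLR4* and MD-2, were at 4.67 to 5.85 CPM and 9.55 to 14.4 CPM. The gene ENSG00000285082, which overlaps *TLR4* on the same strand, had between 0 and 2 counts, so few counts were assigned to it.

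*TLR1* and *TLR6* encode the partners of *TLR2* and overlap on the minus strand of chromosome 4, with *TLR1* at chr4:38790677-38856817 and *TLR6* at chr4:38823715-38856817. *TLR1* was at 1.46, 1.95 and 1.44 CPM in shNC 1 to 3 and at 2.73, 1.65 and 0.949 CPM in shATGL 1 to 3. *TLR6* was at 2.18, 1.87 and 1.75 CPM in shNC 1 to 3 and at 1.98, 3.28 and 1.68 CPM in shATGL 1 to 3. The highest *TLR1* value was in shATGL 1 and the highest *TLR6* value in shATGL 2, and shATGL 3 was the lowest library for both genes. The log2 fold change was 0.14 with a 95% interval of -0.72 to 0.997 for *TLR1* (edgeR adjusted p = 0.902). It was 0.26 with an interval of -0.37 to 0.90 for *TLR6* (edgeR adjusted p = 0.711). Each sign rested on a single library, since *TLR1* was at -0.31 without shATGL 1 and *TLR6* at -0.08 without shATGL 2. Because the counting of overlapping reads is not given, the genes were also summed, a choice made after seeing the data. The sum was 3.64, 3.81 and 3.19 CPM in shNC 1 to 3 and 4.71, 4.92 and 2.63 CPM in shATGL 1 to 3, with shATGL 1 and shATGL 2 above and shATGL 3 below every shNC library as for *TLR2* and *TLR4* (exact permutation p = 0.5).

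*TLR5*, the flagellin receptor, lies on chromosome 1 (chr1:223109406-223143282, minus strand) and was close to the detection limit. It had 30, 34 and 35 counts in shNC 1 to 3 and 42, 44 and 53 counts in shATGL 1 to 3. In CPM the groups were 0.493 ± 0.0786 and 0.674 ± 0.180 (SD, n = 3 each; exact permutation p = 0.2), and shATGL 1 at 0.567 lay just below shNC 2 at 0.571. The log2 fold change was 0.45 with a 95% interval of -0.32 to 1.21 (edgeR adjusted p = 0.595). *TLR10*, which lies beside *TLR1* and *TLR6* on chromosome 4 (chr4:38772239-38782990, minus strand), had 4 to 7 counts per library and was not tested.

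**Figure D3:**
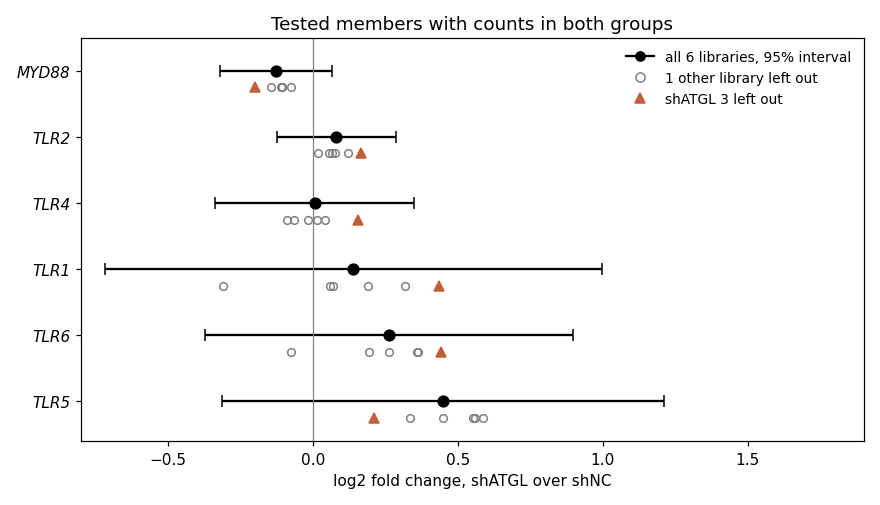
Log2 fold change of shATGL over shNC for the 6 tested members with counts in both groups; black circles are the fit to all 6 libraries with 95% intervals, open circles leave out 1 other library each and triangles leave out shATGL 3. Every interval includes 0, and leaving out shATGL 3 gives *TLR2* at 0.16, *TLR4* at 0.16 and *MYD88* at -0.20.

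Leaving out shATGL 3 moved *TLR2*, *TLR4*, *TLR1*, *TLR6* and *MYD88* further from shNC and *TLR5* closer to it, and none of these 6 was called. *TLR1* then had a log2 fold change of 0.43, *TLR6* of 0.44 and *TLR5* of 0.21. *TLR2* had a log2 fold change of 0.16 (edgeR adjusted p = 0.0767), *TLR4* of 0.16 (edgeR adjusted p = 0.265) and *MYD88* of -0.20 (edgeR adjusted p = 0.0753). Over all 14 alternatives the adjusted p ran from 0.0767 to 0.982 for *TLR2*, from 0.265 to 0.996 for *TLR4* and from 0.0753 to 0.910 for *MYD88*. The background moved as well, because without shATGL 3 the calls over all genes went from 1 to 319, or 1.60% of the genes tested. Library shATGL 3 had the lowest total count, at 59674064 beside 60003349 in shNC 2, and what sets it apart was not tested.

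Of the endosomal receptors, *TLR7* and *TLR8* were not detectable at this depth in most libraries. *TLR7* (chrX:12867083-12890380, plus strand) had 4, 4 and 0 counts in shNC 1 to 3 and 13, 8 and 0 counts in shATGL 1 to 3. *TLR8* (chrX:12906620-12923169, plus strand) had 8, 4 and 4 counts in shNC 1 to 3 and 0, 8 and 0 counts in shATGL 1 to 3. All of these values except the 13 counts of *TLR7* in shATGL 1 were under the floor of 12, and no fold change was computed. *TLR8-AS1*, an antisense transcript that overlaps *TLR8*, had 0 to 4 counts. *TLR3*, the double-stranded RNA receptor that signals without *MYD88*, had 0 to 8 counts.

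*TLR9*, the receptor for unmethylated CpG DNA, was the member whose groups separated, and the identifier that overlaps it separated in the opposite direction. *TLR9* had 0 counts in shNC 1, 2 and 3 and 55, 108 and 43 counts in shATGL 1 to 3. ENSG00000173366 had 29, 82 and 188 counts in shNC 1 to 3 and 0 counts in shATGL 1, 2 and 3. No library had counts on both identifiers. Of all tested genes 4, or 0.0209%, had 0 counts in every library of one group and at least 10 in every library of the other; besides these identifiers they were *MAPK15* and ENSG00000285238. That rule was set after the values were seen, and *TLR9* passed the filter on low counts only through the group in which it is high.

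**Figure D4:**
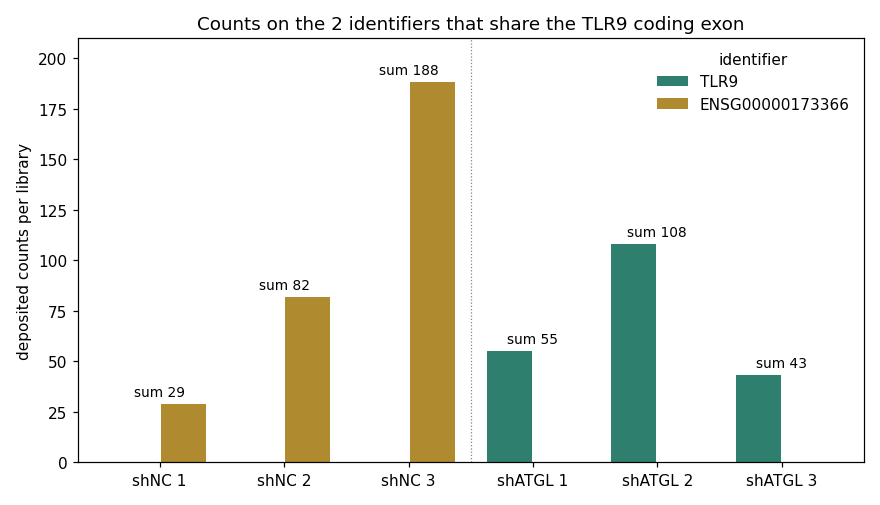
Deposited counts on *TLR9* and on ENSG00000173366 in each library, as bars from 0; the number above each library is the sum of both identifiers. All counts are on ENSG00000173366 in the 3 shNC libraries and on *TLR9* in the 3 shATGL libraries, and the sums (29, 82 and 188 against 55, 108 and 43) overlap.

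Both identifiers cover the same coding exon. In GENCODE 29 (GRCh38), *TLR9* lies at chr3:52221080-52226163 on the minus strand and has 1 transcript of 2 exons, of 637 and 3233 bases. ENSG00000173366 lies at chr3:52221081-52231190 on the same strand and has 2 transcripts, both tagged as readthrough, which start in exons of the neighbouring gene *TWF2*, encoding an actin-binding protein of the twinfilin family. Of the 3870 exonic bases of *TLR9*, 3341 or 86.3% are also exonic in ENSG00000173366. Of the 3096 coding bases of *TLR9* before the stop codon, 3093 are coding in both. Of the 3804 exonic bases of ENSG00000173366, 3341 lie in *TLR9* exons and the other 463 in *TWF2* exons, leaving 0 that belong to it alone. Only 529 bases, all but 1 of them in the first exon upstream of the coding sequence, are exonic in *TLR9* and not in ENSG00000173366.

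The annotated transcripts differ in the exons they join. The exon junctions at which *TLR9* and ENSG00000173366 differ are shown 5′ to 3′ from the GENCODE 29 transcripts, with the last 15 bases of the upstream exon in capitals and the following 15 bases in lower case, because reads across them are among those that tell the transcripts apart. The *TLR9* junction joins the exon ending at chr3:52225527, whose last 3 bases are the start codon, to the coding exon that begins at chr3:52224312. The junction of the longer ENSG00000173366 transcript joins a *TWF2* exon ending at chr3:52229661 to the same first base of the coding exon. The junction of its shorter transcript joins that *TWF2* exon to chr3:52225635 inside the first exon of *TLR9*, and its next junction runs from chr3:52225527, the end of that exon in *TLR9* too, to chr3:52224267, past the first bases of the coding exon. This last exon of the shorter transcript has 0 coding bases in the annotation.
TLR9: CTGCCCCCCAGCATGggtttctgccgcagc
ENSG00000173366 longer transcript: GAGATCGCCAAGAAAggtttctgccgcagc
ENSG00000173366 shorter transcript: GAGATCGCCAAGAAAccgctgctgcccctg
ENSG00000173366 shorter transcript, next junction: CTGCCCCCCAGCATGgccatcatgctggcc
The lower-case bases of *TLR9* and of the longer ENSG00000173366 transcript are identical, so a read that lies within the coding exon of these transcripts carries no base that assigns it to either identifier. The table holds counts per gene, and reads across these junctions were not analysed here.

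Taken alone, *TLR9* was at 0.956 ± 0.394 CPM in shATGL (SD, n = 3) and at 0 in every shNC library, at least 5.35-fold higher when shNC is set to the floor of 12 counts per library. Its fitted log2 fold change of 9.05 depends on the prior count and is no measure of size; the unadjusted p was 8.16e-05 and the edgeR adjusted p 0.312, with shATGL higher in 3 of 3 libraries. ENSG00000173366 was at 1.48 ± 1.13 CPM in shNC and at 0 in every shATGL library, at least 8.55-fold lower in shATGL against the same floor (edgeR adjusted p = 0.392). The exact permutation p was 0.1 for each identifier, the smallest that 3 against 3 can give.

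The call on *TLR9* depended on the tool and the libraries. It was called by DESeq2 (adjusted p = 3.96e-07), where 0.151% of the 15845 genes given an adjusted p were called. Calls also came from limma voom with quality weights (adjusted p = 0.0250, 1.39% called) and from edgeR without shATGL 3 (adjusted p = 0.00485, 1.60% called). In each case *TLR9* had counts only in shATGL, the group in which it is high, so these p-values add no separate support. Over 13 alternatives its adjusted p ran from 3.96e-07 to 0.837. ENSG00000173366 was called in the opposite direction under the same 3 alternatives. When the counts of both identifiers were summed, the separation was gone. The sum was 0.400, 1.38 and 2.65 CPM in shNC 1 to 3 and 0.742, 1.41 and 0.716 CPM in shATGL 1 to 3. The means were 1.48 ± 1.13 and 0.956 ± 0.394 CPM (SD, n = 3 each), a difference of -0.52 CPM with an exact permutation p of 0.7, and the edgeR log2 fold change of the sum was -0.62 (adjusted p = 0.696). Without shNC 3, the library with the highest sum, the difference was 0.0669 CPM. Whether the split between the identifiers came from the counting or from the transcripts was not tested.

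*TWF2*, whose exons supply the upstream part of ENSG00000173366, was at 104 ± 4.53 CPM in shNC and 96.9 ± 7.73 CPM in shATGL (SD, n = 3 each; edgeR adjusted p = 0.604), far above either identifier. Markers of the cell types known for *TLR9* were at similar levels in both groups. The 6 B cell markers summed to between 11.2 and 12.6 CPM in shNC and between 12.1 and 13.6 CPM in shATGL, with *MS4A1* and *BLK* at 0. The 5 plasmacytoid dendritic cell markers summed to between 124 and 134 CPM in shNC and between 122 and 134 CPM in shATGL, with *CLEC4C* at 0.

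The rest of the pathway was described with 113 genes in 7 lists by role, of which 95 were tested. Of these 95, 0 were called and 4 had an unadjusted p under 0.05, all of them higher in shATGL (*REL*, *TAB3*, *RNF31* and *ATF3*), beside the 11.7% of all tested genes. The log2 fold change was above 0 in 47 and below 0 in 48, with a median of -0.01 beside 0.01 over all genes tested. The groups did not overlap in 3 of the 95 with shATGL higher and in 5 with shATGL lower, beside 7.93% and 9.38% of all tested genes. DESeq2 and limma voom with quality weights also called 0 of them, although 6 with voom (10.8% of all genes) and 12 with edgeR without shATGL 3 (14.0% of all genes) had an adjusted p under 0.05 whatever the fold change.

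Of 17 co-receptors, chaperones and further receptors 13 were tested and 0 were called, with a median log2 fold change of -0.09. *HSP90B1* encodes the endoplasmic chaperone of most Toll-like receptors, and *CNPY3* its co-chaperone. *HSP90B1* was at 592, 635 and 529 CPM in shNC 1 to 3 and at 926, 930 and 441 CPM in shATGL 1 to 3 (log2 fold change 0.39, edgeR adjusted p = 0.559), which is the arrangement seen for *TLR2* and *TLR4*. *CNPY3* was at 223 ± 14.0 and 205 ± 13.1 CPM (SD, n = 3 each; edgeR adjusted p = 0.523). *TASL*, which links endosomal receptors to IRF5, was at 159 ± 7.75 and 198 ± 49.9 CPM (SD, n = 3 each; edgeR adjusted p = 0.493), with shATGL 3 at 141 CPM below every shNC library. *RAB7B*, a GTPase of late endosomes, was lower in shATGL without overlap, at 7.40 ± 0.710 and 6.13 ± 0.373 CPM (SD, n = 3 each; edgeR adjusted p = 0.443). *UNC93B1*, which carries *TLR7*, *TLR8* and *TLR9* to endosomes and was named after its values were seen, was at 193 to 232 CPM while those receptors were at 0 to 1.41 CPM. Per kilobase of the longest transcript, *UNC93B1* averaged 91.5 CPM over the libraries, against 0.0134, 0.0134 and 0.124 for *TLR7*, *TLR8* and *TLR9*. The arrangement of *TLR2* and *TLR4* was found in 10 of the 95 genes, 4 of them in this list, beside the 8.53% of all tested genes.

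Of 8 further adaptors and adaptor-associated genes, all tested and 0 called, *SYK* was at 347 ± 5.47 and 331 ± 30.8 CPM (SD, n = 3 each; edgeR adjusted p = 0.736) and *BTK* at 115 ± 5.31 and 111 ± 3.80 CPM (SD, n = 3 each; edgeR adjusted p = 0.756). *SARM1*, a restraining adaptor, was at 0.623 ± 0.307 and 1.03 ± 0.858 CPM. Of 25 kinases and ubiquitin enzymes, all tested and 0 called, 2 had an unadjusted p under 0.05. These were *TAB3*, a partner of the kinase TAK1, with a log2 fold change of 0.36 (edgeR adjusted p = 0.414), and *RNF31*, the catalytic part of the linear ubiquitin ligase, with 0.25 (edgeR adjusted p = 0.425). *IRAK1*, the kinase recruited through *MYD88*, was at 359 ± 11.1 and 346 ± 37.1 CPM, and *UBE2V1*, a cofactor of the TRAF6 ubiquitin reaction, at 164 ± 9.34 and 154 ± 10.5 CPM. *ECSIT*, an adaptor of TRAF6, was at 40.2 ± 0.945 and 35.6 ± 3.55 CPM.

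Of 16 transcription factors, all tested, 0 were called and the median log2 fold change was 0.05. *REL*, an NF-κB subunit, had the smallest p of the 95 genes. It was at 14.99, 19.1 and 12.8 CPM in shNC 1 to 3 and at 28.99, 27.0 and 17.8 CPM in shATGL 1 to 3. Library shATGL 3 lay within the shNC range, and the log2 fold change was 0.65 (edgeR unadjusted p = 0.0162, adjusted p = 0.392). *ATF3*, a stress-induced factor, was higher in shATGL without overlap, at 1.07 ± 0.198 and 1.65 ± 0.448 CPM (SD, n = 3 each; log2 fold change 0.62, edgeR adjusted p = 0.425). *IRF8* and *IRF5*, the most abundant per length, were at 745 ± 11.9 and 709 ± 40.9 CPM and at 152 ± 2.84 and 153 ± 2.09 CPM. *NFKBIZ*, an inducible regulator of NF-κB targets, was at 2.83 ± 0.996 and 3.59 ± 0.287 CPM.

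Of 20 inhibitors 18 were tested and 0 called, with a median log2 fold change of 0.00 and as many genes above 0 as below, 9 each. *IRAK3*, the kinase-like inhibitor of monocytes, was at 132 ± 11.0 and 157 ± 30.5 CPM (SD, n = 3 each; edgeR adjusted p = 0.510). *NFKBIA*, the NF-κB inhibitor that is itself an NF-κB target, was at 55.5 ± 3.54 and 55.2 ± 1.93 CPM (SD, n = 3 each; edgeR adjusted p = 0.977). *ZC3H12A*, an RNase that degrades cytokine transcripts, had a log2 fold change of 0.17, and *NFKBIE* and *TNIP1*, further restraints on NF-κB, had -0.11 and -0.04.

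Of 22 genes for cytokines and other outputs of activated Toll-like receptors 12 were tested and 0 called, with a median log2 fold change of -0.14 over those that passed the filter, and 9 of the 22 stayed under the floor of 12 counts in every library. *CCL5* was the most abundant, at 37.6 ± 3.40 and 34.998 ± 5.59 CPM (SD, n = 3 each; edgeR adjusted p = 0.762). *CXCL8*, the neutrophil chemokine, was lower in shATGL without overlap, at 1.87 ± 0.249 and 1.29 ± 0.359 CPM (SD, n = 3 each; log2 fold change -0.52, edgeR adjusted p = 0.466). *CXCL2* was also lower in shATGL without overlap, at 0.277 ± 0.0447 and 0.182 ± 0.0424 CPM, and *CXCL1* was at 0.294 ± 0.164 and 0.203 ± 0.0697 CPM. *CXCL2* and *CXCL1* each fell to 10 counts in the lowest library, under the floor of 12. *IL23A* was at 1.24 ± 0.661 and 1.43 ± 0.185 CPM. *IL6* and *IL10*, named after their values were seen, had 0 counts in every library. Of 5 receptors of the interleukin-1 family, which also signal through *MYD88*, 3 were tested and 0 called. *IL1RAP*, the shared co-receptor, was at 45.6 ± 6.25 and 46.5 ± 1.45 CPM and *IL1R1* at 2.28 ± 0.501 and 1.87 ± 0.138 CPM. *IL18RAP* was lower in shATGL without overlap, at 0.900 ± 0.0996 and 0.674 ± 0.121 CPM.

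**Figure D5:**
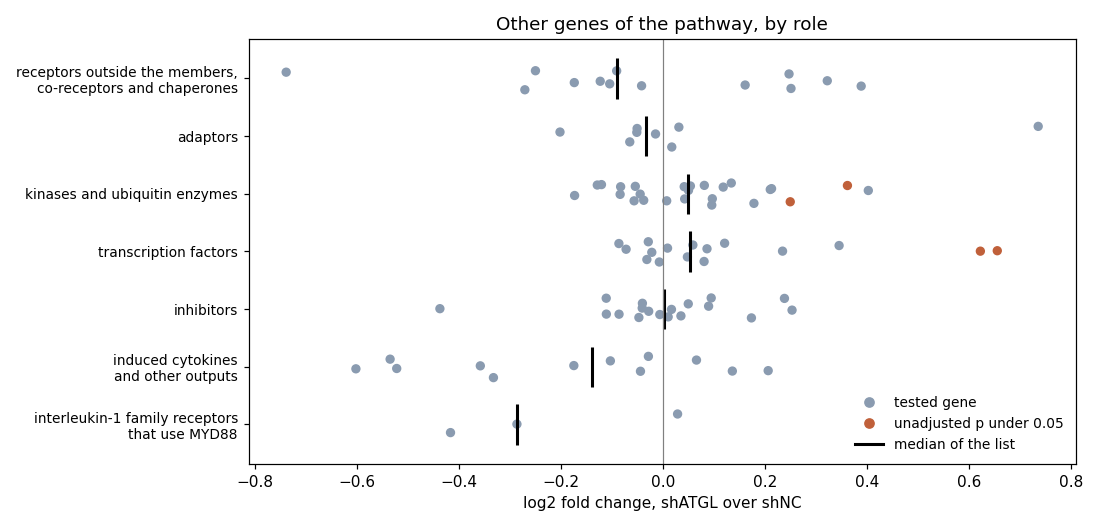
Log2 fold change of shATGL over shNC for the 95 tested genes in 7 lists by role; each point is a gene, orange marks the 4 genes with an unadjusted p under 0.05, and black bars are list medians. The medians of the larger lists lie close to 0, and no gene passed the adjusted threshold.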

How the data were processed

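RNA from 6 MV4-11 libraries, 3 shNC and 3 shATGL by the sample titles, was sequenced. The supplementary methods describe TRIzol, NovaSeq sequencing and FASTP filtering, while the labels also name a column kit and cDNA amplification. The authors deposited raw counts per gene without normalization. The aligner, counter and strand setting are not given in the sources used here; the submitters' processing notes name mm10, a mouse build, although the identifiers are human. A name was found for 61757 of the 61806 identifiers, and 58254 were in GENCODE 29, which gave coordinates, lengths and sequences.

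Counts were analysed with edgeR 4.0.16 (filterByExpr with minimum count 10, TMM, quasi-likelihood test, no block, Benjamini-Hochberg over 19149 genes), limma 3.58.1 and DESeq2 1.42.0 in R 4.3.3. Exact two-sided permutation tests were enumerated in Python 3.11.15 with NumPy 2.4.6. CPM used TMM-scaled library sizes. The edgeR test was tested on simulated counts, drawn with the means and edgeR dispersions of these libraries. All members and ENSG00000173366 were named; from each list the genes with an adjusted p under 0.05, the 3 with the smallest p and the 2 with the highest level per length, and others as chosen after their values were seen. The members and lists were chosen with earlier results of these data known. Alternatives were other scalings, filters and tools, the replicate block, a length and GC correction and leaving out each library.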

Additional observations from a re-analysis of the deposited data

How the results depend on the processing

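Over all genes, 1 gene was called in the reported fit, 3 with upper-quartile normalization, 24 with DESeq2, 266 with limma voom with quality weights and 0 with the replicate number as a block; leaving out 1 library gave 0 to 319, the 319 without shATGL 3. The count of members called was 0 and became 1 (*TLR9*) with DESeq2, with voom and without shATGL 3, so that leaving out libraries gave 0 to 1. The count of non-overlapping members was 1 and became 2 (*TLR5* and *TLR9*) with total counts alone as scaling. No pathway list gene was called under any of the 14 alternatives.

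Log2 fold changes changed sign for *TLR4* with upper-quartile normalization (-0.013), the replicate block (-0.012) and the length and GC correction (-0.28), and ranged from -0.088 (without shATGL 2) to 0.16 (without shATGL 3) with 1 library left out, below 0 also without shNC 3 (-0.016) and shATGL 1 (-0.067). *TLR2* changed sign with the length and GC correction (-0.058). With 1 library left out *TLR1* ranged from -0.31 (without shATGL 1) to 0.43 (without shATGL 3) and *TLR6* from -0.076 (without shATGL 2) to 0.44 (without shATGL 3). *MYD88* stayed between -0.20 and -0.07 and *TLR5* between 0.21 and 0.59 under 14 alternatives each. With at least 10 counts required in every library, *TLR9* was not tested.

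The summed *TLR9* locus differed by -0.52 CPM, by 0.956 CPM for *TLR9* alone, and by -1.06 to 0.0669 CPM with 1 library left out. Of the most like genes, 4 kept their place with a pseudocount of 0.1 and 0 by Spearman's rho. By rho, *SYTL3*, *ZNF57* and *REPIN1* still had the highest possible value of 1, which several genes can share over 6 libraries. The cause of these changes was not tested.

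Deviations from the group means correlated at 0.0661, 0.224 and 0.332 between libraries of the same number and at -0.278 to 0.175 between different numbers. The values for numbers 2 and 3 were thus above every value between different numbers. No label says what a number marks, so the reported fit had no block, and these correlations do not settle whether the numbers are pairs.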

Other observations

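Genes whose levels followed a member most closely across the 6 libraries were found by Pearson's r of log2(CPM + 1), as a description over libraries that share both groups and their depths. For *TLR2* these were *SH3YL1* (r = 0.998, Spearman's rho 0.943) and *SYTL3* (r = 0.996, rho 1), for *TLR4* *HSF2* (r = 0.994, rho 0.943) and *ZNF57* (r = 0.993, rho 1), and for *MYD88* *REPIN1* (r = 0.999, rho 1) and *ELMO1* (r = 0.997, rho 0.943). An r of at least 0.95 was reached by 403 tested genes for *TLR2*, 192 for *TLR4* and 388 for *MYD88*, so none of these is particular to its member.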
